A study of Rattus norvegicus with 44 samples.

Results

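The response of neonatal rat ovaries to glial cell line-derived neurotrophic factor (GDNF) was examined on 17 of the 44 arrays of the series, 3 of ovaries treated with GDNF and 14 of untreated control ovaries. The arrays were chosen by their labels as the GDNF samples and the controls of the set of 38 arrays that tested 8 growth factors. The study asked which genes respond to factors that act on the primordial follicle, and each growth factor was added to whole ovaries in organ culture. The other 21 arrays of the set, 3 each of AMH, BMP4, FGF2, FGF7, KITLG, LIF and PDGFab, gave a second comparison that used no control array, and the 6 arrays of a separate CTGF experiment were not used.

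GDNF is a secreted ligand that binds the co-receptor GFRA1, and the pair then activates the receptor tyrosine kinase RET. Signals from RET run through the ERK and PI3K pathways, and in mice GDNF from Sertoli cells keeps the stem cells of the male germline renewing themselves. In the newborn ovary most oocytes rest in primordial follicles, each enclosed by flat pregranulosa cells, and GDNF is counted among the factors that move such follicles on to the primary stage.

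The GDNF samples came from ovaries of female Sprague-Dawley rats aged 4 days, cultured whole with rat GDNF at 50 ng/ml for 48 h. The control samples came from ovaries of the same strain, sex, age and culture time with no growth factor added, and the medium was renewed every 24 h in both groups. Each sample pooled 2 or 3 ovaries of 1 culture well, from different pups of 1 litter, and the labels call the samples biological replicates. The study's methods state that each culture day held untreated controls beside growth factor treatments, and the study reports correcting potential batch effects in its network analysis. The day of culture was not given for any array, so that a difference between days and a difference between treatments cannot be told apart where they coincide. Controls could not be matched to the GDNF samples by day, and the fit here treats all arrays as independent, with no batch term. The study's text counts 2 GDNF replicates, and the labels give 3, all of which were used. The arrays measured RNA of the whole ovary, in which fewer cells of a type and less RNA per cell cannot be told apart.

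Levels are log2 values, on which a difference of 1 is a 2-fold change, and each array held 27342 probe sets. Probe sets with a mean of 7 or more over the 14 controls are called bright here (10498) and the others dim (16844), since dim values lie close to the background of the array. A probe set was called when its p from the fit of the 38 arrays, adjusted over all 27342 probe sets, was below 0.05 (limma with Benjamini-Hochberg adjustment).

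GDNF-treated ovaries differed from controls in 517 probe sets (1.89%), and the direction ran with the level of the probe set. Among bright probe sets 61 were lower in GDNF-treated ovaries (0.581% of those tested) and 11 were higher (0.105%). Among dim probe sets 27 were lower (0.16%) and 418 were higher (2.48%). The bright genes that fell include members of the ribosome, the actin cytoskeleton and the secretory pathway, while 26 of the dim ones that rose were olfactory receptors. These were called at a share of 2.36%, against 2.48% of all dim probe sets. Of dim probe sets with 1 gene symbol, 1.83% were called in either direction. The median difference over all probe sets, called or not, was -0.04 for bright ones and 0.08 for dim ones.

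**Figure D1:**
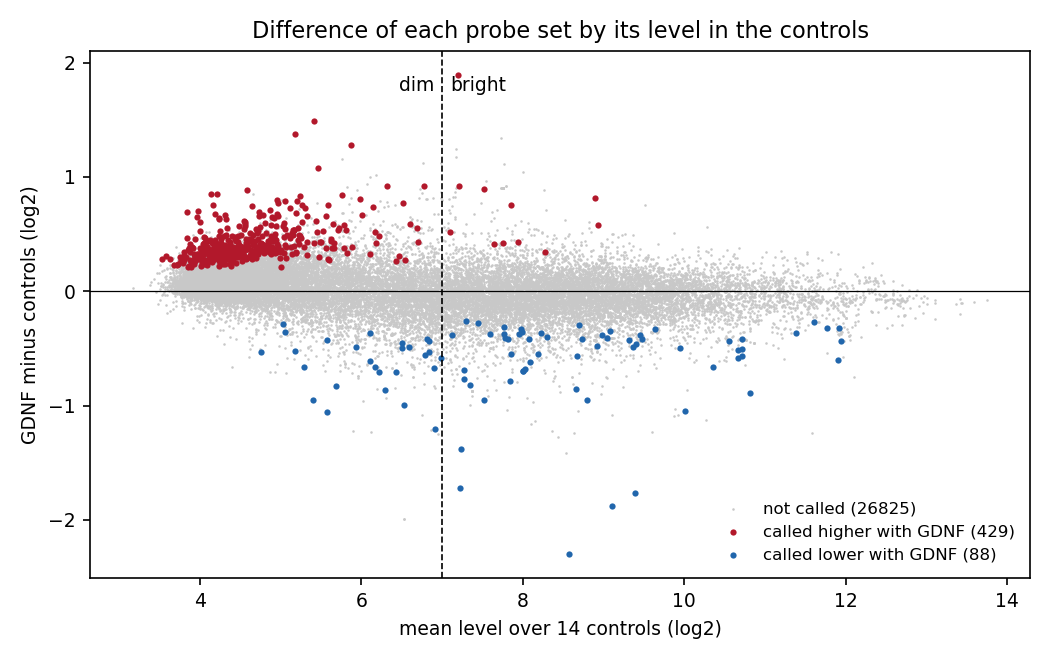
Each point is 1 probe set, with its mean log2 level over the 14 controls on the horizontal axis and GDNF minus controls (log2) on the vertical axis; red and blue points passed the adjusted threshold and the dashed line marks the limit of 7 between dim and bright. Most of the 429 probe sets called higher lie left of the line, and 61 of the 88 called lower lie right of it.

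These calls rested on the spread shared by all 38 arrays. With the 3 GDNF and 14 control arrays alone in the fit, 5 probe sets were called, all dim, all higher and all among the 517, and none of them had a gene symbol. No bright probe set passed in that fit, in which 175 bright probe sets were higher and 848 lower at an unadjusted p under 0.05. None passed either when the probe sets with a mean under 7 over the 38 arrays were left out before the fit and its adjustment. The fit with all probe sets held 209 bright ones higher (1.99%) and 1110 lower (10.6%) at an unadjusted p under 0.05, and 2905 dim ones higher (17.2%) and 446 lower (2.65%). The t-test of the study's methods, after Benjamini-Hochberg adjustment, called 1 bright probe set lower and 15 dim ones higher, and no member of any gene list below other than those of olfactory, vomeronasal and taste receptors. The share of higher against lower calls moved with the scaling. The counts of bright higher, bright lower, dim higher and dim lower were 8, 15, 115 and 24 after repeated quantile normalization, 6, 9, 90 and 16 after cyclic loess, and 11, 17, 236 and 9 with each array centred on its bright probe sets.

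Single arrays moved the counts by a large factor. Without GDNF sample 1, 2 or 3, the bright probe sets called lower came to 4, 2 or 11, and the dim ones called higher to 55, 98 or 226. Without control 12 the counts were 48 bright higher, 469 bright lower, 1662 dim higher and 135 dim lower. Control 12 lay below the mean of the controls in 60 of the 61 bright probe sets called lower and was the lowest control in 41 of them. It lay above that mean in 400 of the 418 dim probe sets called higher and was the highest control in 250.

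The same array stood apart in its profile at the low levels. Its median deviation from the control mean was 0.23 for probe sets of level 4 to 5 and -0.186 for those of level 7 to 8. Control 2 was at 0.11 and -0.194 in these bins, so that control 12 was not the lowest control at level 7 to 8. For the GDNF samples those medians were 0.13, 0.09 and 0.06 at level 4 to 5, and -0.10, -0.04 and -0.00 at level 7 to 8. Each GDNF sample therefore deviated in the direction of control 12 at the low levels, by less than control 12 did, and GDNF samples 1 and 2 did so at level 7 to 8 too. The standard deviation over probe sets was 2.038 to 2.087 on the GDNF arrays, against 1.98 to 2.18 on the control arrays, with a median of 2.15. Controls 12 and 2 had the lowest of these, at 1.98 and 2.05. The arrays of the other growth factors had 2.091 to 2.162, all above the GDNF arrays. The part of these differences between arrays in the calls was not tested beyond the alternatives given here.

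**Figure D2:**
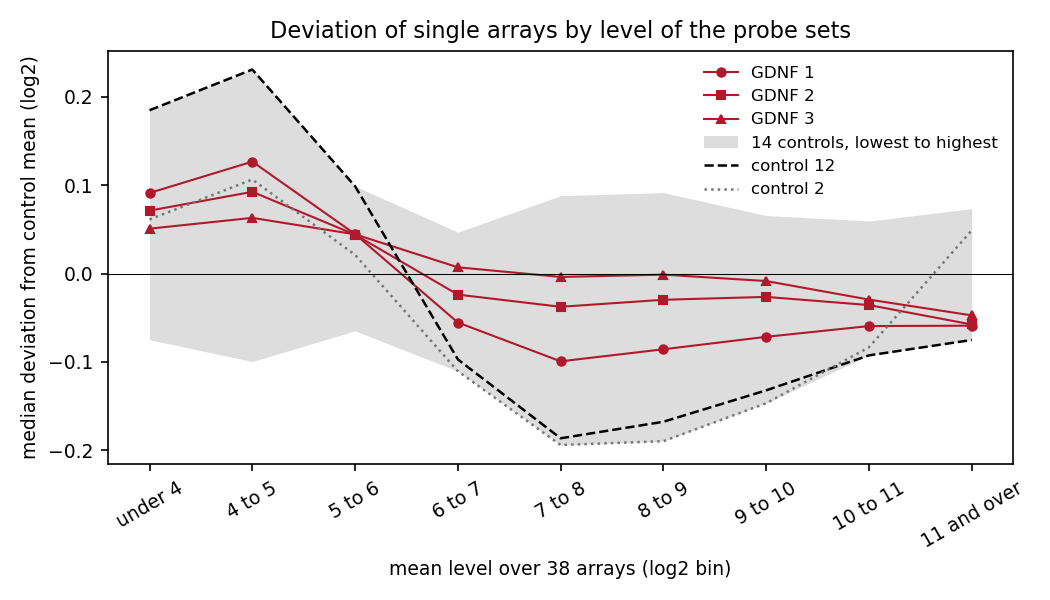
The median deviation of single arrays from the mean of the 14 controls (log2, vertical axis) is drawn for bins of the mean level over 38 arrays (horizontal axis); red lines are the 3 GDNF samples, the grey band spans the 14 controls, and control 12 (dashed) and control 2 (dotted) are drawn as lines. All 3 GDNF samples lie above 0 in the 3 bins under level 6 and below 0 from level 7 on, and control 12 follows the same course with larger deviations.

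The genes of the GDNF pathway itself came first among the members. None of the 13 ligands and receptors of the GDNF family was called, with 1 higher and 1 lower at an unadjusted p under 0.05. Gfra1, the co-receptor for GDNF, had levels of 7.55, 7.65 and 7.48 in the GDNF samples, against a lowest, median and highest of 6.77, 7.45 and 7.97 in the controls. All 3 values lay inside the range of the controls, and the difference was 0.19 ± 0.24 (SE, adjusted p = 0.731). Ret, the signalling receptor, had dim levels of 5.01, 5.07 and 5.05 in the GDNF samples, against 4.58, 5.06 and 5.59 as the lowest, median and highest control. The GDNF samples lay in the middle of the controls, and the difference was -0.02 ± 0.16 (SE, adjusted p = 0.966).

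Endogenous Gdnf was also dim, at 5.64, 5.69 and 5.82 in the GDNF samples, against 5.24, 5.47 and 5.78 as the lowest, median and highest control. Only the highest GDNF sample lay above the controls, and the difference of 0.20 ± 0.09 (SE) had an adjusted p of 0.247. Control 12 was the highest control. Against the other 7 growth factors the difference of Gdnf was 0.27 ± 0.09 (SE, adjusted p = 0.0431), in a comparison that called 9.95% of dim probe sets higher. Ncam1, a neural adhesion molecule that can serve GDNF as a receptor without RET, had 6.94, 6.97 and 6.39 in the GDNF samples, against 6.41, 7.29 and 7.96 as the lowest, median and highest control. The GDNF sample at 6.39 was below every control, next to control 12 at 6.41, and the difference was -0.50 ± 0.24 (SE, adjusted p = 0.287). Sdc3, a cell surface proteoglycan that binds GDNF, differed by 0.27 ± 0.15 (SE, adjusted p = 0.352). The co-receptors Gfra2, Gfra3, Gfra4 and Gfral differed by -0.32 to 0.12, and the ligands Nrtn, Artn, Pspn and Gdf15 by -0.16 to 0.09.

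**Figure D3:**
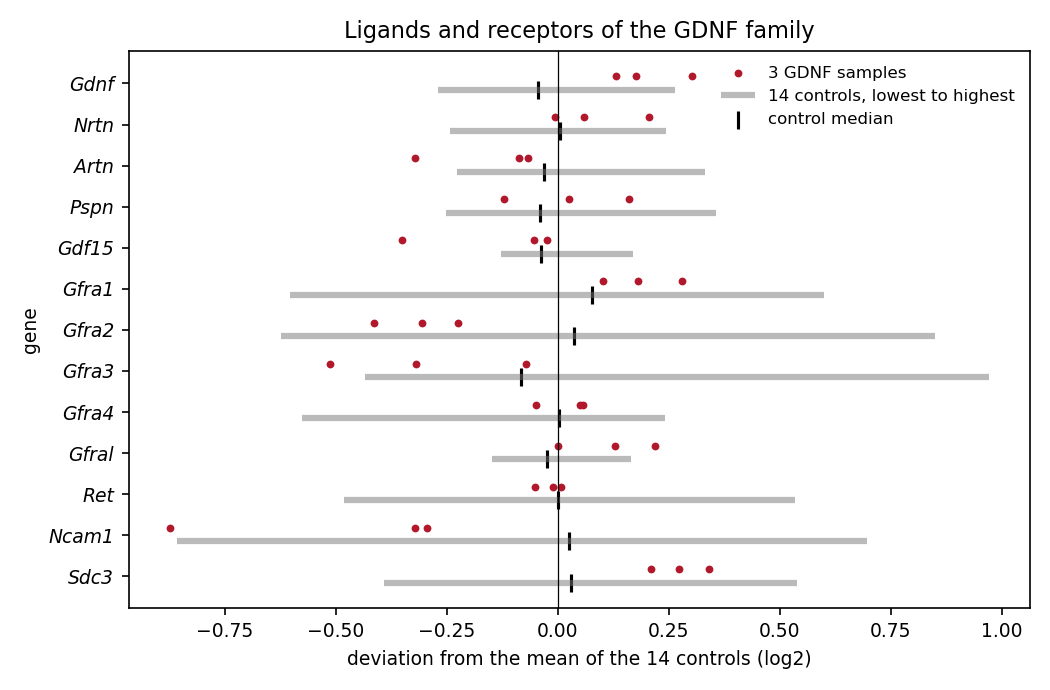
For each gene of the GDNF family (vertical axis, ligands at the top, then co-receptors, Ret and other binding partners) the red points are the deviations of the 3 GDNF samples from the mean of the 14 controls (log2, horizontal axis), the grey bars span the 14 controls and the black ticks are the control medians. The 3 values of Gfra1, Ret and Sdc3 all lie inside the bars, and in no gene do all 3 lie outside them.

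Genes known to answer to this pathway were no different in count. Of 24 immediate early genes and ERK feedback genes measured none was called, with 2 higher and 1 lower at an unadjusted p under 0.05. Dusp6, a phosphatase that switches ERK off and whose transcript follows ERK activity, had 7.96, 8.0 and 7.76 in the GDNF samples, against 7.70, 7.97 and 9.18 as the lowest, median and highest control. None was called among 17 genes that GDNF is known to raise in male germline stem cells (1 higher and 0 lower at an unadjusted p under 0.05), nor among 15 genes of PI3K and FoxO control of follicle activation (0 higher and 1 lower). The medians of the lists were -0.06, 0.03 and -0.05, against -0.04 over all bright and 0.08 over all dim probe sets.

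The bright probe sets called lower carried 28 different gene symbols on 33 probe sets, and 28 further ones had no single symbol. Zfp347, a zinc finger protein, had levels of 7.60, 7.08 and 7.37 in the GDNF samples, against a lowest, median and highest of 7.52, 8.11 and 8.25 in the controls. GDNF samples 2 and 3 lay below every control, and sample 1 lay between control 14 at 7.52 and control 12 at 7.62. The difference was -0.68 ± 0.13 (SE, adjusted p = 0.00705, exact permutation p = 0.00294 over 680 splits), and with 17 arrays the adjusted p was 0.140. The permutation p here and below is not adjusted. These genes were chosen by their call on the same arrays, so it is no independent support.

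Selenom, a selenoprotein of the endoplasmic reticulum, had the largest fall among the bright genes called with a symbol. Its levels were 6.3, 6.44 and 6.84 in the GDNF samples, against 6.29, 7.35 and 7.81 as the lowest, median and highest control. Control 12 was that lowest control, and the GDNF samples lay below each of the other 13. The difference was -0.82 ± 0.22 (SE, adjusted p = 0.0457, exact permutation p = 0.00588).

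Ifitm2, a membrane protein induced by interferon, had levels of 9.62, 9.83 and 9.63 in the GDNF samples, against 9.83, 10.28 and 11.11 as the lowest, median and highest control. GDNF sample 2 and control 12 were both at 9.83, and the other 2 GDNF samples were lower than any control. The difference was -0.66 ± 0.17 (SE, adjusted p = 0.0386). It was the only one of 22 interferon-induced genes measured to be called (4.55%, against 0.581% of bright and 0.16% of dim probe sets lower). The median difference of that list was -0.21. Its mean level was 7.34, 7.30 and 7.72 in the GDNF samples, against a control median of 7.61, so that sample 3 lay above that median.

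Cofilin and profilin, regulators of actin, were both lower. Cfl1 encodes cofilin, which severs actin filaments, and had 10.23, 10.26 and 10.16 in the GDNF samples, against 10.11, 10.79 and 10.98 as the lowest, median and highest control. Its difference was -0.50 ± 0.12 (SE, adjusted p = 0.0196). Pfn1 encodes profilin, which feeds actin monomers to growing filaments, and had 10.08, 10.22 and 10.05 in the GDNF samples, against 10.13, 10.57 and 11.04 as the lowest, median and highest control. Its difference was -0.43 ± 0.12 (SE, adjusted p = 0.0455). In both genes control 12 was the lowest control and lay within or next to the GDNF samples. These 2 were the only called genes of 32 of the actin cytoskeleton (6.25%, against 0.581% of bright probe sets). The median of that list was -0.08, against -0.04 over all bright probe sets, and -0.01 after quantile normalization.

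Genes of membrane traffic and signalling were also among the bright ones that fell. Rab1b, a small GTPase of transport between endoplasmic reticulum and Golgi, fell on both of its probe sets, by 0.56 and 0.49 (adjusted p = 0.0242 and 0.0372). Nck1, an adaptor that links receptor tyrosine kinases to actin, fell by 0.48 ± 0.12 (SE, adjusted p = 0.0296). Rmdn2, a regulator of microtubule dynamics, fell by 0.49 ± 0.13 (SE, adjusted p = 0.0416). The 15 other symbols had differences of -0.43 to -0.26, among them Braf, a kinase that feeds ERK (-0.43), Creb1, a transcription factor of cyclic AMP signalling (-0.40), and Ran, which drives nuclear transport (-0.38). Lamtor1, an anchor of growth signalling at the lysosome, fell on both of its probe sets, by 0.42 and 0.37. Of all 61 bright probe sets called lower, 14 had every GDNF sample below every control (67 of all 10498 bright probe sets did, 0.638%).

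**Figure D4:**
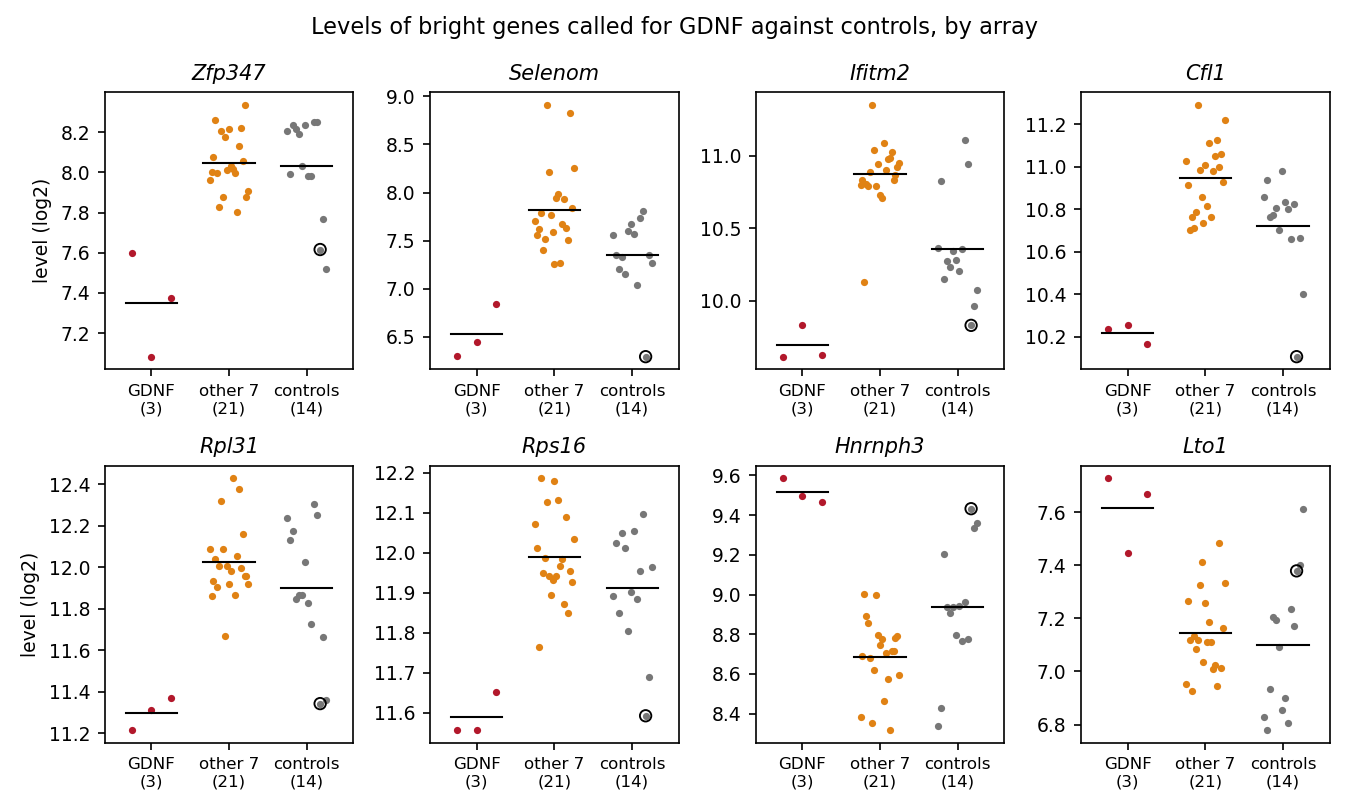
Log2 levels (vertical axes) of 8 bright genes called against controls are shown on every array of the set, with the 3 GDNF samples in red, the 21 arrays of the other 7 growth factors in orange and the 14 controls in grey; black bars are group means and the ringed point is control 12. In each of the 6 genes that fell, the ringed control lies at or near the level of the GDNF samples.

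Ribosomal proteins, which together with ribosomal RNA form the ribosome, formed a group among the bright genes called lower. Of 72 genes of the cytosolic ribosome measured, 3 fell by their brightest probe set, Rpl10a, Rpl23 and Rps16, and none rose (4.17%, against 0.581% of bright probe sets). The median of the 72 differences was -0.17 and 67 of them were below 0, while the median over all bright probe sets was -0.04. Many transcripts of this group begin at a run of pyrimidines, through which their translation follows growth signals. Ribosomal protein genes have many near-identical processed copies in the rat genome, so that the probe sets below may read transcripts of more than 1 locus.

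The starts of the 4 genes of this group with a called probe set are shown because each holds a pyrimidine run within the first 30 bases of the annotated transcript, in Rps16 and Rpl23 not at its very start. They are RefSeq sequences of the GRCr8 build, from 20 bases before the annotated start to 30 bases from it, and the capitals mark the first match to CTTTCC or CTTTTCC on the sense strand.
Rpl31, chr9:49143091-49143140, plus strand: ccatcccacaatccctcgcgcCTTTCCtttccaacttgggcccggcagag
Rpl10a, chr20:6390513-6390562, plus strand: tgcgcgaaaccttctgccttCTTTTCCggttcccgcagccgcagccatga
Rpl23, chr10:83272155-83272204, minus strand: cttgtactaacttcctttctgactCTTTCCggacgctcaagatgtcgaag
Rps16, chr1:92770638-92770687, plus strand: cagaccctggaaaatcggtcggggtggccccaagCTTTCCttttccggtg
The match begins 2, 1, 5 and 15 bases from the annotated start in Rpl31, Rpl10a, Rpl23 and Rps16. One of these motifs stood on the sense strand of the same window in 24 of 61 ribosomal protein genes with a sequence (39.3%), against 2.73% of 33469 promoters. On either strand the shares were 41% and 5.73%. A match is a description of the letters and no measure of use.

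Rpl10a was called on all 4 of its probe sets, with differences of -0.58 to -0.42. On the probe set with the largest of them its levels were 10.05, 10.02 and 10.18 in the GDNF samples, against 10.07, 10.67 and 11.05 as the lowest, median and highest control (adjusted p = 0.0244). On 2 of the 4 probe sets every GDNF sample was below every control. Rpl31 was called on 1 of 7 probe sets, where it had 11.21, 11.31 and 11.37 in the GDNF samples, against 11.34, 11.87 and 12.30 as the lowest, median and highest control (difference -0.60 ± 0.15, SE, adjusted p = 0.0312). On its brightest probe set the difference was -0.40 ± 0.13 (SE, adjusted p = 0.111), and so the list does not count it. Controls 12 and 14 were at 11.34 and 11.36 on the called one, inside the span of the GDNF samples.

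Rps16 had 11.56, 11.56 and 11.65 in the GDNF samples, against 11.59, 11.93 and 12.10 as the lowest, median and highest control. Its difference was -0.32 ± 0.09 (SE, adjusted p = 0.0400), and control 12 was again the lowest control. Rpl23 had 9.12, 9.44 and 9.36 in the GDNF samples, against 9.44, 9.65 and 9.85 as the lowest, median and highest control. Every GDNF sample of Rpl23 was below every control, and the difference was -0.33 ± 0.09 (SE, adjusted p = 0.0411, exact permutation p = 0.00147, the smallest that 3 against 14 allows). Against the other 7 growth factors Rpl23 differed by -0.16 ± 0.08 (SE, adjusted p = 0.229), since their median level of 9.45 was itself close to that of the GDNF samples.

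Only 2 bright genes with a symbol were higher in GDNF-treated ovaries. Hnrnph3, an RNA-binding protein of the spliceosome, had 9.59, 9.50 and 9.46 in the GDNF samples, against 8.34, 8.94 and 9.43 as the lowest, median and highest control. Every GDNF sample was above every other array of the set, yet control 12 at 9.43, control 14 at 9.36 and control 13 at 9.34 came close. The difference was 0.58 ± 0.16 (SE), with an adjusted p just under 0.05. Lto1, which in yeast helps to load an iron-sulphur cluster onto a ribosome recycling factor, had 7.73, 7.45 and 7.67 in the GDNF samples, against 6.78, 7.13 and 7.61 as the lowest, median and highest control. Control 14 was the highest of those controls, inside the span of the GDNF samples, and the difference was 0.52 ± 0.13 (SE, adjusted p = 0.0334).

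Of the dim probe sets called lower, 10 had a gene symbol. Prag1, a pseudokinase that organises actin and adhesion signals, had 5.47, 5.57 and 5.50 in the GDNF samples, against 5.69, 6.26 and 6.60 as the lowest, median and highest control. All 3 values were below every other array of the set, with a difference of -0.71 ± 0.16 (SE, adjusted p = 0.0174). Bad, a killer protein of the Bcl2 family that survival kinases silence, had 6.35, 6.44 and 6.41 in the GDNF samples, against 6.44, 6.88 and 7.18 as the lowest, median and highest control. Its difference was -0.43 ± 0.11 (SE, adjusted p = 0.0413), and it was the only one called of 14 Bcl2 family genes by their brightest probe sets. That share was 7.14%, against 0.16% of dim and 0.581% of bright probe sets lower. At an unadjusted p under 0.05 the list had 3 lower and 2 higher, the dim Bid and Mcl1.

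Bax, which opens the mitochondrial membrane in apoptosis, was called on the dimmer of its 2 probe sets (-0.49 ± 0.11, SE, adjusted p = 0.0148). On the brighter one it was not (-0.22 ± 0.07, SE, adjusted p = 0.102). The dimmer one read 5.56, 5.22 and 5.55 in the GDNF samples, against 5.41, 5.98 and 6.17 as the lowest, median and highest control, and control 12 was the one at 5.41. Cntf, a neurotrophic cytokine, fell by 0.50 ± 0.12 (SE, adjusted p = 0.0292). Tmem107, a protein of the base of the cilium, fell by 0.62 ± 0.17 (SE, adjusted p = 0.0460) with every GDNF sample below every control. Sult5a1, a sulfotransferase, and Tmem200a fell by 0.71 and 0.66 (adjusted p = 0.0473 and 0.0210).

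Of the 418 dim probe sets called higher, 132 had 1 gene symbol. Olfactory receptors, the odour sensors of the nasal epithelium, gave 26 of 1103 measured and vomeronasal and taste receptors 5 of 160, with none lower. Those shares of 2.36% and 3.12% stand beside 2.48% over all dim probe sets, and the medians of 0.11 and 0.13 beside 0.08. Of the 7775 dim probe sets with 1 symbol, 132 were higher and 10 lower (1.83% in either direction), with a median of 0.07. Over the alternative scalings, with each of the normalizations and without controls 12 to 14, the median of the olfactory receptors ranged from 0.01 to 0.16 and that of the vomeronasal and taste receptors from 0.03 to 0.18.

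The largest rise among the genes called was that of Or4c52, an olfactory receptor, at 5.78, 5.19 and 5.42 in the GDNF samples, against 4.15, 4.51 and 5.36 as the lowest, median and highest control. Control 12 was the highest control and lay above GDNF sample 2, and the difference was 0.88 ± 0.17 (SE, adjusted p = 0.00705). In Or2h1, Or2r3b, Senp18 and Zfhx2 (called on 1 of its 7 probe sets), with differences of 0.59 to 0.68, control 12 was likewise the highest control, and it lay above 3, 3, 2 and 3 of the GDNF samples. Or8c9 differed, since its GDNF samples at 5.26, 4.97 and 5.16 all lay above the highest control at 4.91 (difference 0.57 ± 0.10, SE, adjusted p = 0.00321). The other dim genes called higher included genes typical of other tissues, picked here after their values were seen. Heart and skeletal muscle genes were among them, such as Myl7, a light chain of atrial myosin (0.46), Trdn, of the calcium release unit (0.41), and Nkx2-5, a heart transcription factor (0.29). So were the liver genes Apoh and Fabp1 (0.35 and 0.23) and the photoreceptor genes Pde6h and Guca1b (0.42 and 0.31). All of these were dim in both groups, with GDNF means of 4.12 to 6.61 and control means of 3.89 to 6.19. The list of 7 muscle genes holds Des, Mylk, Smtn, Tagln, Myh11, Actg2 and Cnn1, and not Myl7, Trdn or Nkx2-5. It therefore cannot show whether other heart and skeletal muscle genes rose. None of the 7 was called, 3 differences were above 0 and 4 below, and their median was -0.06.

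Of the 418 probe sets, 103 had every GDNF sample above every control, as did 153 of all 16844 dim probe sets (0.908%).

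The call held without each GDNF sample in turn for 16 of the 517 probe sets, 15 of them dim and higher, and 2 of the 16 had a symbol. Lgals4, galectin-4 of the gut lining, had 4.31, 4.48 and 4.45 in the GDNF samples, against 3.86, 4.09 and 4.19 as the lowest, median and highest control. Control 12 was at the control median, and the difference was 0.36 ± 0.06 (SE, adjusted p = 0.00196). Slc30a10, a manganese exporter, had 4.68, 4.64 and 4.54 in the GDNF samples, against 4.09, 4.17 and 4.50 as the lowest, median and highest control. The difference was 0.43 ± 0.07 (SE, adjusted p = 0.00245), and control 12 was the highest control. In both genes every GDNF sample was above the other 35 arrays (0.493% of dim probe sets), though both levels are among the lowest that the arrays gave. The 1 bright probe set that held had no gene symbol and read 5.68, 5.45 and 5.39 in the GDNF samples, against a mean of 7.23 in the controls (difference -1.72).

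Set against the other 7 growth factors, with no control array in the comparison, GDNF-treated ovaries differed in more probe sets. Of bright ones 866 were lower (8.25%) and 286 higher (2.72%), and of dim ones 363 were lower (2.16%) and 1676 higher (9.95%). Without each GDNF sample in turn the bright counts came to 242 to 481 lower and 92 to 115 higher. The direction by level was again not the same after normalization: 526 bright probe sets were lower and 475 higher after repeated quantile normalization, and 565 and 447 after cyclic loess.

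The 5 bright genes with the largest falls are given first. Ndufb6, a subunit of respiratory complex I, had 7.88, 7.84 and 7.72 in the GDNF samples, against 8.53, 9.34 and 9.68 as the lowest, median and highest of the 21 other treated arrays. The 2 groups did not overlap, and the difference was -1.53 ± 0.24 (SE, adjusted p = 0.000229). Against controls it was -0.81 ± 0.25 (SE, adjusted p = 0.0763), and controls 12, 13 and 14 were at 7.81, 8.12 and 7.96.

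Cox8a, a subunit of cytochrome c oxidase, had 9.45, 9.35 and 9.70 in the GDNF samples, against 9.93, 10.97 and 11.13 as the lowest, median and highest of the other treated arrays. The difference was -1.39 ± 0.21 (SE, adjusted p = 0.000225), and controls 12, 13 and 14 stood with the GDNF samples at 9.85, 9.59 and 9.81. Dad1, a subunit of the enzyme that attaches sugar chains to new proteins, had 9.94, 9.64 and 10.08 in the GDNF samples, against 10.31, 11.45 and 11.72 as the lowest, median and highest of the other treated arrays. Controls 12 and 14 were at 9.63 and 10.21 in Dad1, with control 13 between them. Polr1h, a subunit of RNA polymerase I, and N5 differed by -1.56 and -1.47 (adjusted p = 0.00105 and 0.00360).

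The rises were led by Srp9, a protein of the signal recognition particle, with 8.70, 8.77 and 8.68 in the GDNF samples, against 7.36, 7.70 and 7.93 as the lowest, median and highest of the other treated arrays. The difference was 1.05 ± 0.17 (SE, adjusted p = 0.000301). In the controls Srp9 spanned 7.71 to 8.98, with controls 12, 13 and 14 at 8.58, 8.84 and 8.68, and the difference from controls was 0.43 ± 0.18 (SE, adjusted p = 0.200). Bccip, a partner of BRCA2 and of the cell cycle inhibitor p21, was 0.99 ± 0.14 higher (SE, adjusted p = 0.000131). Dppa3, which oocytes store for the early embryo, was called on all 5 of its probe sets, with differences of 0.66 to 0.79. It was the only one called of 19 oocyte genes (5.26%, against 2.72% of bright probe sets higher). Against controls none of its 5 probe sets was called, with differences of 0.32 to 0.36 (adjusted p = 0.372 to 0.454). Its brightest one read 9.22, 9.20 and 9.27 in the GDNF samples, against 7.52, 8.48 and 9.10 in the other treated arrays, and controls 12, 13 and 14 read 9.40, 9.20 and 9.25.

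Untreated controls 12, 13 and 14 lay on the side of the GDNF samples in most of the bright probe sets that set GDNF apart from the other growth factors. Of the 866 bright probe sets called lower, control 12 was below the mean of the other 7 growth factors in 864 (99.8%), control 13 in 845 (97.6%) and control 14 in 834 (96.3%). Controls 1 to 11 were below it in 50.2% to 81.9%. The median difference from the other growth factors in these probe sets was -0.48 for GDNF, against -0.57, -0.35 and -0.35 for controls 12, 13 and 14 and -0.25 to -0.00 for controls 1 to 11. In the 286 bright probe sets called higher, controls 12, 13 and 14 were on the side of GDNF in 98.3% to 100%, and controls 1 to 11 in 55.2% to 90.6%. In the 1676 dim probe sets called higher the shares were 97.3%, 70.3% and 81% for controls 12, 13 and 14, and 33.1% to 77.3% for controls 1 to 11, so that control 13 did not stand apart there. The medians in these were 0.33 for GDNF, against 0.36, 0.06 and 0.11 for controls 12, 13 and 14 and -0.06 to 0.12 for controls 1 to 11. What these 3 controls share with the GDNF samples is not in the labels, and its part in these differences was not tested.

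Without these 3 controls, GDNF against the remaining 11 gave 812 bright probe sets lower, 119 bright higher, 1967 dim higher and 253 dim lower. All 517 probe sets called with the 14 controls were called again. These 3 controls were left out with their values known, after they were seen to lie near the GDNF samples. Being called again is therefore no independent support.

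Subunits of oxidative phosphorylation, the chain of mitochondrial complexes that makes ATP, were lower with GDNF than with the other growth factors in 29 of 72 genes (40.3%, against 8.25% of bright probe sets) and higher in none. By complex, 15 of 32 genes of complex I were lower, 0 of 4 of complex II, 3 of 7 of complex III, 6 of 13 of complex IV and 5 of 16 of ATP synthase. The medians were -0.32, -0.00, -0.29, -0.42 and -0.33 in that order, so that complex II, the link to the citric acid cycle, was the one complex whose median stood at 0.

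The mean level of the 72 genes was 8.62, 8.67 and 8.69 in the GDNF samples, against 8.84 to 9.24 over the 21 other treated arrays and 8.63 to 9.23 over the controls. Each GDNF sample was below all 21, and 23 of the 72 genes singly showed that pattern (5.6% of bright probe sets did). Control 12 had the lowest control level at 8.63, and controls 13 and 14 were at 8.82 and 8.76. Against controls 1 of the 72 genes was called (1.39%, against 0.581% of bright probe sets lower), Ndufb11 of complex I. It had 9.03, 9.03 and 9.11 in the GDNF samples, against 8.95, 9.51 and 9.78 as the lowest, median and highest control. The difference was -0.42 ± 0.11 (SE, adjusted p = 0.0468). The median of the 72 differences from controls was -0.23, with 60 below 0, and stayed between -0.26 and -0.18 over the alternative scalings, probe set choice and set of controls.

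The ribosomal protein genes showed a weaker form of the same comparison. Against the other growth factors 18 of 72 were lower (25%) and 1, Rps3a, was higher, with a median of -0.15, against 8.25% and -0.05 over all bright probe sets. Those lower came to 10, 8 and 16 without GDNF sample 1, 2 and 3, and the median to -0.10 without sample 1 and to -0.07 after quantile normalization. The large subunit had 10 of 44 lower and the small subunit 8 of 28. Their mean level was 11.08, 11.13 and 11.19 in the GDNF samples, against 11.16 to 11.53 over the other treated arrays and 11.13 to 11.51 over the controls. The GDNF sample at 11.19 lay inside both ranges. Rplp2, of the stalk of the large subunit, had 10.86 to 11.01 in the GDNF samples, against 11.40 to 11.80 in the other treated arrays (difference -0.67, adjusted p = 0.000386).

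**Figure D5:**
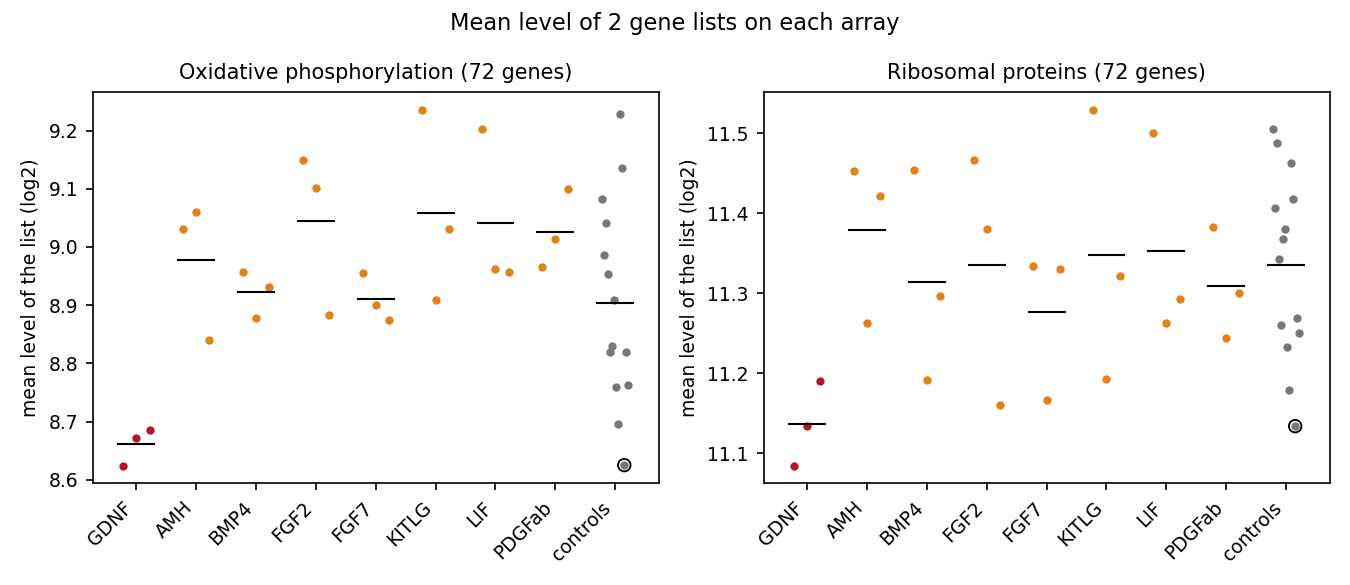
Points are the mean log2 level (vertical axes) of 72 oxidative phosphorylation genes (left) and 72 ribosomal protein genes (right) on each array, by growth factor (horizontal axis); black bars are group means and the ringed point is control 12. The 3 GDNF samples lie below every other treated array on the left at 8.62 to 8.69, and the ringed control lies among them.

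Of 55 spliceosome and hnRNP genes 7 were higher than with the other growth factors (12.7%, against 2.72% of bright probe sets) and 5 lower (9.09%, close to the 8.25% of bright probe sets). Hnrnpa3, Hnrnpa2b1, Hnrnpa1 and Hnrnph1, which coat new transcripts and steer splicing, were higher by 0.56, 0.52, 0.43 and 0.42, beside Hnrnph3 at 0.83. Lsm6 and Snrpb2, parts of small nuclear particles, were also higher, by 0.52 and 0.32. Snrpb, Snrpd2, Sf3b4, Sf3b5 and Lsm7, other parts of these particles, fell by 0.60, 0.46, 0.42, 0.61 and 0.63. Proteasome subunits, which degrade proteins, had 3 higher and 3 lower of 37 (8.11% each). Translation factors had 1 higher (1.85%) and 6 lower (11.1%) of 54. In the actin list 7 of 32 were lower (21.9%, against 8.25% of bright probe sets) and none higher, among them Cfl1 at -0.73, Tmsb4x at -0.74 and Pfn1 at -0.60. The 7 came to 4, 3 and 4 without GDNF sample 1, 2 and 3, where 2.31%, 3.15% and 4.58% of bright probe sets were lower, and to 4 after quantile or loess normalization.

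Of 22 interferon-induced genes 3 were lower than with the other growth factors (13.6%, against 8.25% of bright and 2.16% of dim probe sets) and none higher, namely the bright Ifitm2, Ifitm1 and Ifitm3 at -1.18, -1.02 and -0.55. Ifitm1 had 9.42, 9.30 and 9.46 in the GDNF samples, against 9.75, 10.45 and 11.20 as the lowest, median and highest of the other treated arrays. The groups did not overlap, and control 12 at 9.51 was the lowest control. Of 14 Bcl2 family genes, 4 of them bright, 3 were lower (21.4%, against 8.25% of bright and 2.16% of dim probe sets) and 0 higher. They were the dim killers Bcl2l11 (Bim) at -0.60, Bik at -0.49 and Bad at -0.44. Of the 14 differences 10 were below 0, and Bid, another dim killer, differed by 0.24 (adjusted p = 0.0951).

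GDNF was also set against KITLG and against FGF2 singly, both ligands of receptor tyrosine kinases. FGF7 and PDGFab, which act through such receptors too, were not compared singly. GDNF-treated ovaries were lower than KITLG-treated ovaries in 229 bright probe sets (2.18%) and higher in 96 (0.914%), and lower than FGF2-treated ovaries in 338 (3.22%) and higher in 68 (0.648%). Of the 72 oxidative phosphorylation genes 20 were lower than with KITLG and 18 lower than with FGF2. Ifitm2 differed by -1.29 from KITLG (adjusted p = 0.00436) and by -1.37 from FGF2 (adjusted p = 0.00194). Cfl1 differed by -0.73 from KITLG (adjusted p = 0.0122) and by -0.83 from FGF2 (adjusted p = 0.00323). All 3 factors were given at 50 ng/ml for 48 h.

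Markers of the ovary were bright in both groups. The oocyte genes Zp3, of the egg coat, and Ddx4, a helicase of germ cells, had 11.16 to 11.39 and 8.74 to 8.84 in the GDNF samples, against 10.58 to 11.52 and 7.87 to 9.03 in the controls. The pregranulosa genes Wt1 and Gata4, transcription factors of the gonad, had 9.86 to 9.97 and 9.06 to 9.37 in the GDNF samples, against 9.83 to 10.92 and 9.08 to 9.99 in the controls. The mean over 19 oocyte genes was 8.83 to 9.24 in the GDNF samples, against 7.65 to 9.30 in the controls, and that over 19 pregranulosa and granulosa genes was 7.84 to 8.03, against 7.64 to 8.29. None of either list was called against controls, with 0 oocyte genes at an unadjusted p under 0.05 and 1 granulosa gene lower. The medians of the differences were 0.20 with 16 of 19 above 0, and -0.14 with 14 of 19 below 0.

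No member was called among 14 genes of stroma, theca and steroid synthesis, 8 of the surface epithelium, 9 of endothelium, 13 of macrophages, 9 of mast cells, 6 of erythroid cells and 7 of muscle. At an unadjusted p under 0.05 these lists had 1 higher and 2 lower in all. Of 13 nerve and glial genes 1 was called (7.69%, against 2.48% of dim probe sets higher), the dim Fabp7, a fatty acid carrier of glia. It had 5.19, 4.87 and 5.10 in the GDNF samples, against 4.47, 4.69 and 5.04 as the lowest, median and highest control (difference 0.33 ± 0.08, SE, adjusted p = 0.0339), and control 12 was the highest control. The mean over the 13 was 5.08 to 5.13 in the GDNF samples, against 4.98 to 5.31 in the controls. Nor was any of 16 meiotic chromosome genes, 26 of DNA replication and mitosis or 13 collagens called, with medians of 0.08, -0.00 and -0.02 and 2 higher and 2 lower at an unadjusted p under 0.05. In the mean of each of these lists the GDNF samples lay inside the range of the controls.

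The study's short list of highly connected genes gives Atp5mk (as Usmg5), Itgb3bp and Efna5 as lower with GDNF. That choice was made on arrays of this same set. They are only a small part of the genes that the study reports as altered by GDNF, and the others were not compared here. Atp5mk, a small membrane subunit of ATP synthase, had 8.89, 8.97 and 8.83 in the GDNF samples on its brighter probe set, against 8.72, 9.52 and 9.95 as the lowest, median and highest control (difference -0.57 ± 0.18, SE, adjusted p = 0.0978). Itgb3bp, a centromere protein, had 6.15, 6.31 and 6.01 in the GDNF samples, against 6.10, 6.66 and 7.49 as the lowest, median and highest control (difference -0.62 ± 0.21, SE, adjusted p = 0.122). Efna5, a membrane-bound ligand of Eph receptors, differed by -0.33 ± 0.22 (SE, adjusted p = 0.461). All 3 had differences below 0, and their values overlapped those of the controls. None was called in the fit of 38 arrays, where the p is adjusted over all probe sets. The study chose genes by an unadjusted t-test p with limits on fold and difference, which is an unlike threshold. The 3 genes are not set against those criteria here.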

How the data were processed

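RNA of whole cultured ovaries was hybridized to Affymetrix Rat Gene 1.0 ST arrays. Per the labels and the study's methods, the authors pre-processed the arrays in Partek Genomic Suite with robust multi-array averaging and adjustment for GC content, and deposited log2 values, which were used as deposited. The 38 arrays of 8 growth factors and their controls were pre-processed together, and the 6 arrays of the CTGF experiment apart. Scanner files were not used here, and the number of arrays limits the precision.

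GDNF minus controls was fitted with limma 3.58.1 in R 4.3.3 (lmFit and eBayes) over the 38 arrays and 27342 probe sets, since the groups share 1 estimate of the spread, and the difference from the mean of the other 7 growth factors came from the same fit. Named genes were also tested with an exact 2-sided permutation test, over 680 splits of 3 against 14, which cannot go below 0.00147. Of the probe sets, 15097 had 1 gene symbol in GEO's platform annotation, 323 several and 11922 none; 15067 of the symbols matched RefSeq's table by gene number. A gene list counts each gene by its brightest probe set.

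Named genes were the 12 largest rises and falls among bright called probe sets with a symbol (only 2 rose), the 6 largest in each direction among dim ones, those held without each GDNF sample, the GDNF family, called list members, the 5 largest in each direction among bright ones against the other 7 growth factors, and the study's 3; others were named after their values were seen. Members and lists were chosen with earlier results of these data known. Replicate numbers did not pair the samples. Alternatives were the 17 arrays alone, leaving arrays out, weights, other normalizations, other limits between bright and dim, and the t-test with the study's criteria. On data simulated from the arrays' means and spread the fit was tested before use.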

Additional observations from a re-analysis of the deposited data

How the results depend on the processing

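The 2 comparisons were repeated under the alternatives listed in the methods, and no difference of a named gene changed sign where it was called. Counts are given as bright higher, bright lower, dim higher and dim lower. GDNF against controls gave 11, 61, 418 and 27 as reported, and 0, 0, 5 and 0 with the 17 GDNF and control arrays alone. Without controls 12, 13 and 14, a choice made with their values known, it gave 119, 812, 1967 and 253. Leaving out 1 GDNF sample gave 0 to 5, 2 to 11, 55 to 226 and 0 to 6. Leaving out 1 control gave 9 to 48, 36 to 469, 300 to 1662 and 16 to 135, with the highest counts without control 12 and the lowest without control 7 (9 bright higher was also reached without several others). Array weights gave 160, 1280, 3755 and 442, quantile normalization 8, 15, 115 and 24, cyclic loess 6, 9, 90 and 16, and centring on bright probe sets 17 bright lower, 236 dim higher and 9 dim lower. With probe sets of a mean under 7 over the 38 arrays left out, 0 bright ones were called in either direction. In the limma fit of all probe sets 209 bright ones were higher and 1110 lower at an unadjusted p under 0.05. A limit of 6 for bright gave 26, 78, 403 and 10, and a limit of 8 gave 3, 42, 426 and 46. The study's criteria with the limma p gave 118, 800, 418 and 303, those with the methods' t-test 83, 533, 333 and 210 on log2 values and 103, 407, 329 and 154 on linear ones, and the t-test after Benjamini-Hochberg adjustment 0, 1, 15 and 0.

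The replicate numbers did not pair the samples, with correlations of deviations of -0.01, -0.13 and 0.16, and with the number as a block GDNF against controls gave 269, 649, 604 and 204. Against the other 7 growth factors the counts as reported were 286, 866, 1676 and 363, and with the block 461, 1378, 2468 and 547. Leaving out 1 GDNF sample gave 92 to 115, 242 to 481, 511 to 960 and 87 to 176. Quantile normalization gave 475, 526, 631 and 468, and cyclic loess 447, 565, 638 and 449. The oxidative phosphorylation genes called lower, 29 as reported, came to 22 and 23 after these and to 15, 19 and 21 without GDNF sample 1, 2 and 3. The median of all differences from controls was 0.04 as reported, 0.00 after quantile normalization, -0.01 after loess and 0.09 after centring. The cause of these changes was not tested.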
